A study of Mus musculus with 6 samples.

Results

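Notch signalling in the intestinal epithelium was followed through 10 genes that cover its ligands (Dll1, Dll4, Jag1, Jag2), its receptors (Notch1, Notch2), a glycosyltransferase that tunes the receptors (Lfng), 2 of its target genes (Hes1, Nrarp) and the lineage factor that the pathway holds back (Atoh1). The members were all probe sets that the platform annotation pairs with 1 of these genes and no other, which gave 18 of the 45101 probe sets on the array. After a filter on dim signals, 16 of them were tested, at least 1 for each gene. RNA came from small intestinal epithelial cells, detached with EDTA at 14 days of age from C57BL/6 mice, and was hybridised to Affymetrix mouse expression arrays, 1 per sample. In the 3 N-cadherin replacement samples (genotype Ecadflox/Ncad;Vil-Cre) 1 E-cadherin allele was floxed and the other allele carried N-cadherin, and Cre under the villin promoter, which is active in gut epithelium, removed the floxed allele there. The 3 control samples were E-cadherin-positive littermates, labelled only as control, so which of these alleles they carried is not known here. Nothing in the labels ties a sample to a single animal, and the p-values cover only the variation among these samples, which may be technical.

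Notch receptors are cleaved when a ligand on a neighbouring cell binds them, and the freed intracellular part joins the DNA-binding protein Rbpj to switch on targets such as Hes1 and Nrarp. In intestinal crypts this keeps progenitors on the absorptive path, because Hes1 represses Atoh1, the factor that commits a cell to the goblet, Paneth or enteroendocrine lineages. Cells that escape the signal express Atoh1 and the ligands Dll1 and Dll4, and so send it to their neighbours. Because ligand and receptor sit in touching membranes, the pathway depends on contact between cells.

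E-cadherin itself (Cdh1) had intensities of 1073, 1175 and 1357 in the replacement arrays and 2757, 2335 and 2204 in the control arrays (log2 difference -1.06, SE 0.241, limma adjusted p = 0.0580), and the annotation does not say whether its probe set lies in the deleted part. Sex-linked probe sets put replacement 2, replacement 3 and control 1 among females, and replacement 1, control 2 and control 3 among males. Control 2 and control 3 had log2 values over bright probe sets whose difference had an SD of 0.115, against 0.347 to 0.564 for other pairs within a group, and were averaged into 1 replicate, which left 3 replacement and 2 control replicates. The 10 epithelial markers were all measured above the filter's floor of 16 intensity units, with summed intensities of 27160 to 32890 in replacement arrays and 21440 to 22690 in control arrays. These sums would overlap without the keratins Krt8, Krt18, Krt19 and Krt20. Fibroblast markers summed to 640 to 703 in replacement arrays and 567 to 1844 in control arrays, the highest value being control 1. The 3′ to 5′ signal ratio of the actin control probe sets was 1.10 to 1.24 in replacement arrays and 1.30 to 1.35 in control arrays, without overlap, and that of Gapdh was 0.660 to 0.715 in replacement arrays and 0.651 to 0.774 in control arrays. The part of RNA quality in the results was not tested. For arrays the number of samples limits the precision.

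None of the 16 member probe sets passed an adjusted p of 0.05 in limma, fitted over all 26664 probe sets kept by the filter, of which 4.04% passed. Unadjusted, 3 of the 16 had a p under 0.05, where 19.5% of all kept probe sets did. All differences below are log2 values of replacement less control, with signals under 16 set to 16. Of the members 8 had a difference above 0 and 8 below it, with a median of 0.05, beside -0.02 over all kept probe sets. The median size of a member's difference, without regard to sign, was 0.30, beside 0.32 over all kept probe sets. Replacement and control arrays were fully separate for 5 of the 16, 4 higher and 1 lower, where 32.1% of all kept probe sets were separate (16.9% higher and 15.2% lower). The shares with an unadjusted p under 0.05 and with separate groups were near those of the whole array. The 5 were the probe set of Dll1 (lower in replacement), all 3 of Jag1 and that of Hes1 (higher in replacement).

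**Figure D1:**
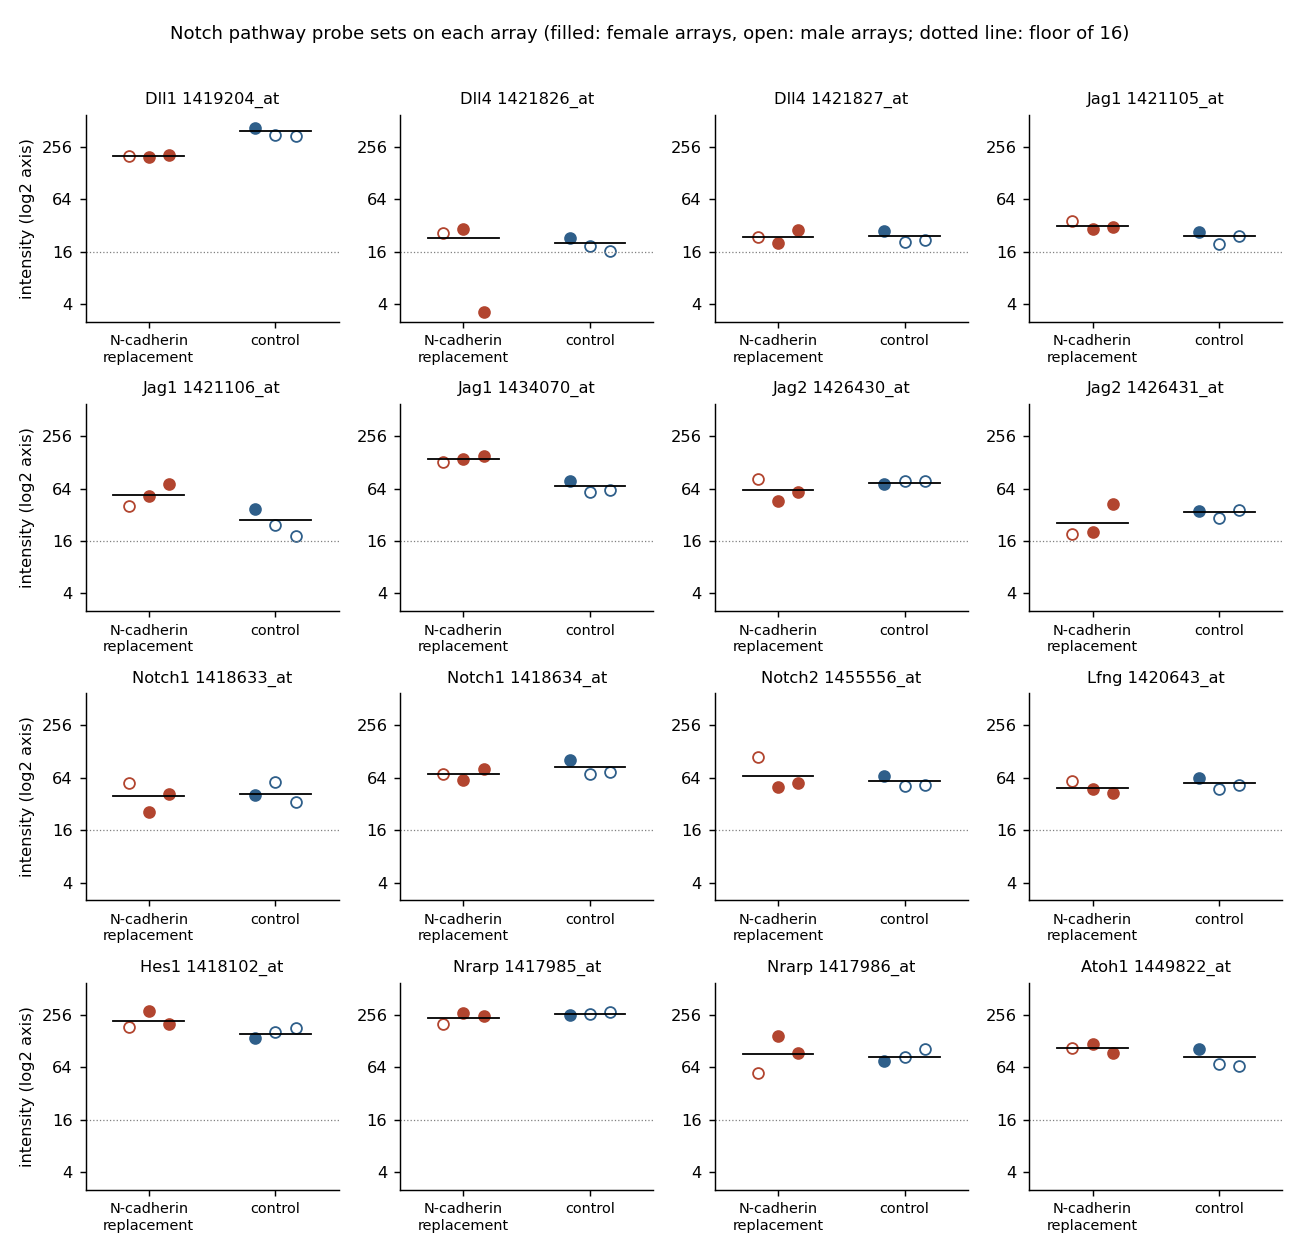
Intensity of each of the 16 tested probe sets on every array, on a log2 axis, with N-cadherin replacement left and control right; horizontal bars are geometric means over the replicates, filled points female arrays and open points male arrays. Dll1 lies at 194 to 205 in replacement and 344 to 425 in control, and Jag1 1434070_at at 129 to 149 and 58.8 to 78.9.

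Among the ligands the largest differences were those of Jag1 and Dll1, and they had opposite signs. Jag1, a ligand of the Serrate type, was read by 3 probe sets. The brightest, 1434070_at, had intensities of 128.5, 140.9 and 149.3 in the replacement arrays, against 78.9, 58.8 and 61.8 in the control arrays. Every replacement array lay above every control array. On the log2 scale the means were 7.12 ± 0.11 (SD, n = 3) in replacement and 6.11 ± 0.28 (SD, n = 2) in control, a difference of 1.01 (SE 0.242, 95% interval 0.45 to 1.58), or 2.02-fold, with a limma adjusted p of 0.0673. The second, 1421106_at, had 40.2, 52.8 and 72.1 in replacement arrays and 37.1, 24.5 and 18.2 in control arrays, so the lowest replacement and the highest control array nearly met. Its difference was 0.93 (SE 0.352, adjusted p = 0.205). The dimmest, 1421105_at, had 36.4, 28.9 and 30.9 in replacement arrays and 26.8, 19.7 and 23.9 in control arrays, a difference of 0.40 (SE 0.243, adjusted p = 0.429). All 3 probe sets thus had a positive difference without overlap, and both dimmer ones had control values not far above the floor.

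Dll1, a ligand of the Delta type that secretory progenitors carry, was read by 1 probe set. It had intensities of 201.4, 193.8 and 204.9 in the replacement arrays, against 425.2, 349.6 and 343.7 in the control arrays. The replacement arrays were close to each other and all lay under the lowest control array. The log2 means were 7.64 ± 0.04 (SD, n = 3) in replacement and 8.59 ± 0.21 (SD, n = 2) in control, a difference of -0.94 (SE 0.229, 95% interval -1.48 to -0.41), or 1.92-fold, with a limma adjusted p of 0.0722. The intervals of Dll1 and of the brightest Jag1 probe set both leave out 0, as intervals of a single probe set without adjustment. With 1 probe set per gene, the brightest, and 12994 genes tested, of which 9.12% passed, the same differences had an adjusted p of 0.0349 for Dll1 and 0.0302 for Jag1. Only the set of probe sets fitted was another there. With control 2 and control 3 as separate replicates, where 11.3% of the probe sets passed, Dll1 (-0.89, adjusted p = 0.0182) and Jag1 1434070_at (1.08, adjusted p = 0.0121) passed as well. They also passed with array weights (25.7% of all passed), with a filter at 64 (12.8%) and with trend and robust options (5.64%), while only Dll1 passed with log2(intensity + 16) (5.32%) and only Jag1 with quantile normalization (4.41%). Neither passed without the filter, with a floor of 4, with median scaling, with sex as a covariate, within either sex, or in any fit that left out a replicate. Without the filter 94 of 45101 probe sets passed. Of 26664, the counts were 661 with a floor of 4, 920 with median scaling and 726 with sex as a covariate. Leaving out replacement 1 gave 1392, replacement 2 gave 105 and replacement 3 gave 44. Both kept their signs in each of the 19 alternative settings. Since their groups were fully separate, leaving out a replicate or splitting by sex could not turn these signs. In bulk RNA fewer cells that express a gene and less RNA per cell cannot be told apart.

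The stretch just upstream of the transcription start is shown for these 2 ligands, because they had the largest differences of the 10 genes. The sequences are the 250 bases before the annotated start from RefSeq, build GRCm38.p6, read 5′ to 3′ on the gene's strand, at chr2:137116521-137116770 (minus strand) for Jag1 and chr17:15376933-15377182 (minus strand) for Dll1. Capitals mark the E-box CANNTG, the letters that basic helix-loop-helix factors such as Atoh1 bind.
Jag1: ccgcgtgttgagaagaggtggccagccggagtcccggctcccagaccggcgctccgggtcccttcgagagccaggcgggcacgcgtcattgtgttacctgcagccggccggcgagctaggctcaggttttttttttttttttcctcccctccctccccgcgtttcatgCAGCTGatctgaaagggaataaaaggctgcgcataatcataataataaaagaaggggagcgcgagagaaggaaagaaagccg
Dll1: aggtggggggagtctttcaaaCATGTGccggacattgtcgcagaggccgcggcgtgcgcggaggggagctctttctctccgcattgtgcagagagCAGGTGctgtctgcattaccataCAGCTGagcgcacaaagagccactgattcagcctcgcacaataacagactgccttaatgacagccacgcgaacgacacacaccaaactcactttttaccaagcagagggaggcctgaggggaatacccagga

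Jag1 held 1 E-box, CAGCTG, which starts 82 bases before the annotated start. Dll1 held 3. The first, CATGTG, starts 229 bases before the annotated start, the next, CAGGTG, 155 bases and the last, CAGCTG, 132 bases before it. The window of a second annotated start of Dll1 held 1. Over 9 of the 10 genes found in the promoter table, Hes1 not being among them, 5 of 10 windows held an E-box, where 66.2% of all 32851 windows did. The core motif of Rbpj, TGGGAA on either strand, stood in 1 of the 10 windows, that of Lfng, where 21.6% of all windows held it. In Lfng 1 of its 2 copies overlapped an E-box, CACGTG. A match only says that the letters are there.

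Dll4, the other Delta-type ligand of the crypt, had low signals and no shift that its arrays could show. The probe set 1421827_at had 23.3, 19.9 and 28.7 in replacement arrays and 27.7, 20.7 and 21.5 in control arrays (log2 difference -0.03, SE 0.268, 95% interval -0.65 to 0.60, limma adjusted p = 0.971). The other, 1421826_at, had 26.3, 29.4 and 3.2 in replacement arrays and 22.8, 18.8 and 16.4 in control arrays. Replacement 3 was the array under the floor, and the difference of 0.21 (SE 0.323, adjusted p = 0.793) turned to -0.46 with a floor of 4 in place of 16, so its sign rests on how that array is treated.

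Jag2, the second Serrate-type ligand, had negative differences at both probe sets with overlapping arrays. For 1426430_at the intensities were 83.1, 46.5 and 59.0 in replacement arrays and 71.6, 78.5 and 78.0 in control arrays, with replacement 1 above all controls and the other replacement arrays below them. The log2 difference was -0.29 (SE 0.296, adjusted p = 0.666). For 1426431_at they were 19.3, 20.1 and 42.3 in replacement arrays and 35.4, 29.6 and 36.1 in control arrays, with a difference of -0.42 (SE 0.373, adjusted p = 0.612), and here replacement 3 was the highest array. With a replicate left out, the first ran from -0.52 to -0.096 and the second from -0.79 to -0.22.

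At every tested probe set of the receptors the groups overlapped and the 95% interval held 0. Notch1, one of the main receptors of crypt cells, had intensities of 70.3, 60.3 and 80.7 in replacement arrays and 102.2, 70.7 and 74.9 in control arrays at its brighter probe set, 1418634_at. The groups overlapped, and the log2 difference was -0.30 (SE 0.266, 95% interval -0.92 to 0.32, limma adjusted p = 0.609). It was -0.057 without control 1, the highest array, and -0.55 without the other control replicate. At 1418633_at the intensities of Notch1 were 55.8, 25.6 and 41.8 in replacement arrays and 40.2, 57.4 and 33.9 in control arrays (difference -0.11, SE 0.347, adjusted p = 0.907). Control 2 and control 3 differed by more there than at any other kept member probe set.

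Notch2, which acts beside Notch1 in crypt progenitors, had intensities of 111.7, 49.8 and 56.4 in replacement arrays and 67.7, 51.3 and 52.4 in control arrays at 1455556_at. A single array, replacement 1, stood apart from the other 5. The log2 difference was 0.20 (SE 0.379, 95% interval -0.69 to 1.08, adjusted p = 0.840), and without replacement 1 it was -0.16. The other Notch2 probe set, 1451889_at, reached the floor on 1 array of each group only and was not tested. Lfng, which adds sugars to the receptors and so shifts which ligand they answer, had 58.8, 48.2 and 42.7 in replacement arrays and 63.7, 47.5 and 52.4 in control arrays (difference -0.19, SE 0.258, adjusted p = 0.761), and leaving out control 1 gave -0.012. The groups overlapped, and the second Lfng probe set, 1449943_at, stayed below 16 throughout, its highest intensity being 11.7.

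**Figure D2:**
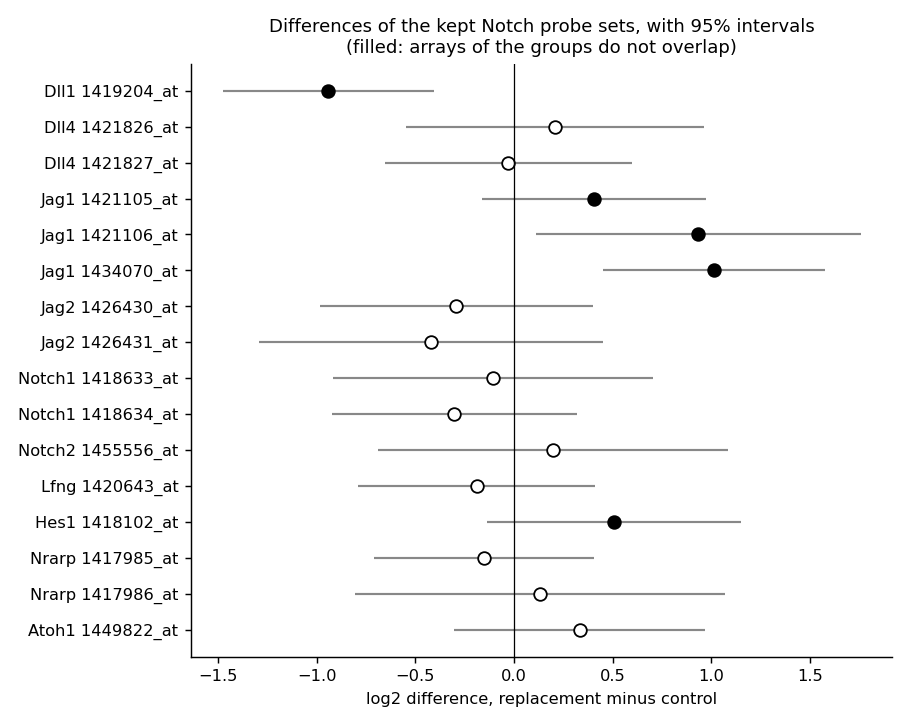
Log2 difference, replacement minus control, of each tested member probe set, with its 95% interval from the moderated fit (3 replacement and 2 control replicates); filled points are probe sets with fully separate groups. The intervals of Dll1, Jag1 1421106_at and Jag1 1434070_at leave out 0, and that of Jag1 1421105_at (-0.16 to 0.97) does not.

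The targets gave no common direction. Hes1, the repressor that is the best known Notch target of the gut, had intensities of 185.3, 285.4 and 199.7 in the replacement arrays, against 140.1, 162.0 and 178.5 in the control arrays. The groups did not overlap, though replacement 1 and control 3 were close. The log2 means were 7.78 ± 0.33 (SD, n = 3) in replacement and 7.27 ± 0.20 (SD, n = 2) in control, a difference of 0.51 (SE 0.276, 95% interval -0.14 to 1.15, limma adjusted p = 0.381). It was 0.32 without replacement 2, the highest array.

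Nrarp, a target that feeds back to dampen the signal, was read by 2 probe sets. At the brighter, 1417985_at, it had 202.8, 267.7 and 244.3 in replacement arrays and 257.5, 260.3 and 278.1 in control arrays (log2 difference -0.15, SE 0.238, adjusted p = 0.795). The groups overlapped, and the interval of -0.71 to 0.40 leaves out a 2-fold change in either direction. At 1417986_at it had 55.2, 144.7 and 94.0 in replacement arrays and 74.3, 82.8 and 103.9 in control arrays (difference 0.13, SE 0.402, adjusted p = 0.903), with replacement 1 lowest and replacement 2 highest of all arrays. The interval of this probe set, -0.81 to 1.07, does not leave out a 2-fold rise. Of the 16 members 9 had an interval within 2-fold on both sides, and all 16 within 4-fold. Both Dll4 probe sets and Jag1 1421105_at are among the 9, but lie near the floor and can show only part of a difference.

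Atoh1, which commits progenitors to the secretory lineages, had intensities of 106.1, 117.4 and 93.3 in replacement arrays and 103.3, 68.8 and 66.2 in control arrays. Control 1 lay among the replacement arrays. The log2 difference was 0.33 (SE 0.273, 95% interval -0.31 to 0.97, limma adjusted p = 0.578), and leaving out control 1 gave 0.64 and leaving out the other control replicate 0.025. The reported value therefore depended on which control replicate it was set against.

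Over the 5 replicates the genes whose values ran most like Hes1, by Pearson's r, were Trib1 (0.999), Rpl7l1 (0.998) and Ccdc34 (0.998). Those most like Atoh1 were Arf6 (0.999), Kif2c (0.997) and Nup62 (0.997). With so few points 256 of 22602 named probe sets had an r over 0.95 with Hes1 and 81 with Atoh1, so such likeness is common and is given as a description.

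Beyond the members, 52 other Notch pathway genes were measured, and 1 of them passed the test, while 7 had an unadjusted p under 0.05. Counted by the brightest kept probe set, 4.78% of 12994 genes passed and 22.1% had an unadjusted p under 0.05, so the 7 are fewer than that share gives. Their median log2 difference was 0.03, beside -0.02 over all genes. The gene that passed was Tle3, a corepressor of the Groucho family that Hes proteins and Wnt factors recruit. Its intensities were 192.2, 149.8 and 140.1 in the replacement arrays, against 482.8, 581.2 and 601.9 in the control arrays. Tle3 fell 3.36-fold in replacement (log2 difference -1.75, SE 0.255, limma adjusted p = 0.0145), with every replacement array below every control array. Its other probe sets, 1419654_at (-1.72, adjusted p = 0.0253) and 1449554_at (-1.48, adjusted p = 0.0402), passed as well. The Tle3 call was lost in fits that leave 1 replicate in a group. These were without control 1 (-1.89), without the other control replicate (-1.60), within females (-1.74) and within males (-1.62). It was also lost without replacement 2 (-1.70, adjusted p = 0.0901), where 105 of 26664 probe sets passed. The same held without replacement 3 (-1.66, adjusted p = 0.0933), where 44 passed. When dim probe sets were all kept (adjusted p = 0.132), 94 of 45101 passed. With so few calls in any gene, these losses say little about Tle3 itself. In the same list of 12 measured genes Tle1 had a difference of 0.52 (SE 0.234, adjusted p = 0.284) and Tle5, a short relative that lacks the repression domain, -0.75 (SE 0.424, adjusted p = 0.401).

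In the machinery that cuts the receptors none of 8 measured genes passed in limma, and 2 had an unadjusted p under 0.05. Aph1b, a subunit of the gamma-secretase complex, had intensities of 68.1, 57.9 and 72.3 in replacement arrays and 117.7, 159.9 and 149.5 in control arrays (log2 difference -1.03, SE 0.249, adjusted p = 0.0696). Its second probe set, 1435793_at, gave -0.91 (SE 0.239, adjusted p = 0.0896), and the groups overlapped at neither. Adam10, the protease that makes the first cut after a ligand binds, had 1071, 1557 and 1458 in replacement arrays and 741, 952 and 886 in control arrays (0.70, SE 0.267, adjusted p = 0.206), again without overlap. Its other probe sets, 1450104_at (1.72, SE 0.589, adjusted p = 0.169) and 1450105_at (1.13, SE 0.358, adjusted p = 0.141), did not overlap either. Ncstn, another gamma-secretase subunit, had a difference of -0.55 (SE 0.280, adjusted p = 0.348). Aph1b and Adam10 thus had differences of opposite sign.

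Of 4 measured genes of receptor glycosylation none passed, and 1 had an unadjusted p under 0.05. Pofut1, which adds the fucose that Lfng extends, had 267.6, 200.8 and 286.0 in replacement arrays and 485.0, 469.9 and 477.2 in control arrays at its brightest probe set (log2 difference -0.95, SE 0.253, limma adjusted p = 0.0920). Its 3 kept probe sets did not move alike, since 1450137_at gave -0.012 (adjusted p = 0.989) and 1456323_at, for which 1 of 3 replacement arrays reached the floor, -0.98 or beyond (adjusted p = 0.0593). Mfng, a relative of Lfng, had a difference of 0.39 (SE 0.263, adjusted p = 0.487).

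None of the remaining pathway lists held a gene that passed. Of 11 genes that turn over or inhibit the receptor, 2 had an unadjusted p under 0.05. The ubiquitin ligase Lnx1 had a difference of 0.73 (SE 0.230, limma adjusted p = 0.137), Dtx1, a Notch-binding ligase of the Deltex family, -0.66 (SE 0.281, adjusted p = 0.255), and Dtx4 0.49 (SE 0.301, adjusted p = 0.436). Of 6 genes for ligand endocytosis none had an unadjusted p under 0.05, and the ubiquitin ligase Neurl1b had 0.52 (SE 0.279, adjusted p = 0.377). Of the other ligands 5 and of the other receptors 2 were measured, and none had an unadjusted p under 0.05: Dlk2 had a difference of 0.44 (SE 0.314, adjusted p = 0.521), Notch4 0.29 (SE 0.315, adjusted p = 0.695) and Notch3 -0.10 (SE 0.266, adjusted p = 0.886). Among other Hes and Hey genes 4 were measured and 1, Hes7, had an unadjusted p under 0.05, with 7.1, 20.3 and 19.3 in replacement arrays and 31.8, 42.1 and 26.0 in control arrays. Replacement 1 was under the floor, so the difference of Hes7 was -0.81 or beyond (SE 0.234, adjusted p = 0.110). Hey1 (-0.19, adjusted p = 0.790) and Heyl (0.15, adjusted p = 0.826) did not pass, and Hes5 and Hey2 were under it on all 6 arrays.

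**Figure D3:**
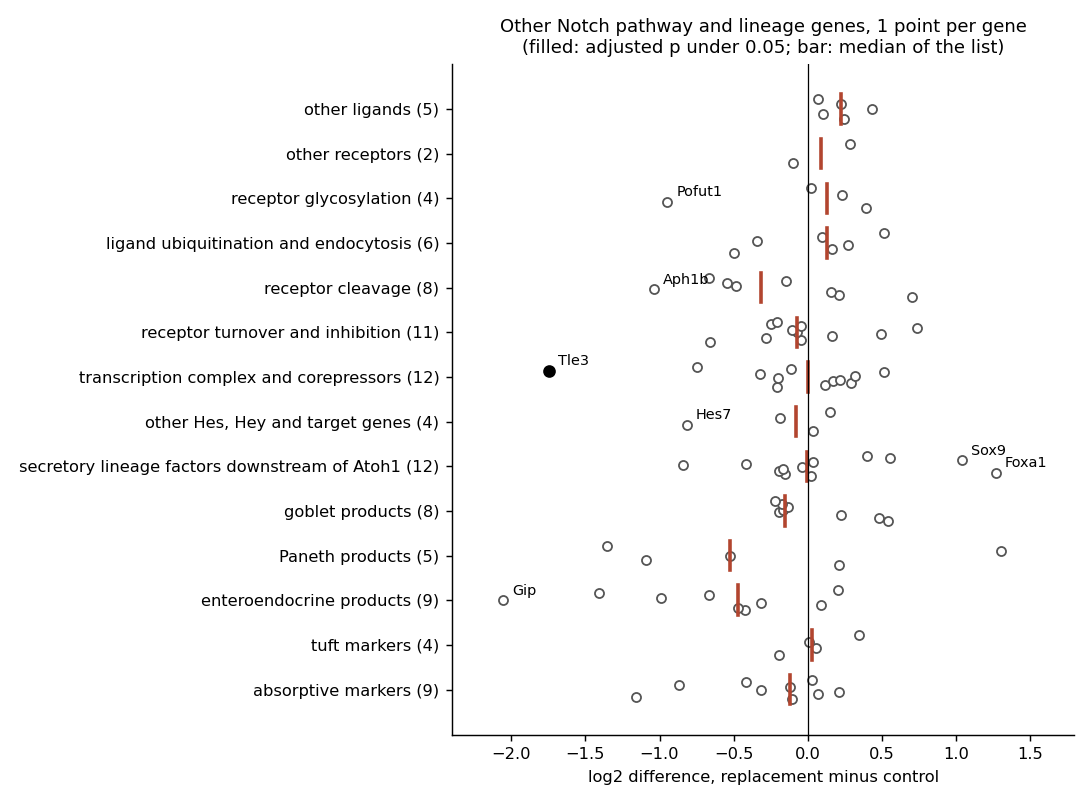
Log2 difference, replacement minus control, of the other Notch pathway genes and of the lineage genes, 1 point per gene by its brightest kept probe set, with the number of genes in parentheses; red bars are list medians. Tle3 (-1.75) is the only filled point, the one gene with an adjusted p under 0.05.

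The cell fates that Notch and Atoh1 choose between were read through 47 measured genes of 6 lists, and none passed in limma, while 9 had an unadjusted p under 0.05, a share no higher than the 22.1% of all genes. Their median log2 difference was -0.15. In the list of secretory lineage factors 6 of 12 differences were above 0. Foxa1, a forkhead factor that acts in goblet and enteroendocrine differentiation, had 313.8, 500.1 and 328.7 in replacement arrays and 127.3, 192.2 and 182.8 in control arrays, without overlap (1.27, SE 0.309, adjusted p = 0.0722). Sox9, which crypt progenitors and Paneth cells express, had 81.3, 128.1 and 102.7 in replacement arrays and 59.2, 39.6 and 44.0 in control arrays (1.04, SE 0.292, adjusted p = 0.106). The goblet and surface cell factor Klf4 had a difference of -0.84 (SE 0.371, adjusted p = 0.272). These factors thus did not share a sign.

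No product of the secretory cells passed, and the lineages were not tested against each other. Of 9 enteroendocrine products 7 had a difference below 0, with a list median of -0.47. The hormone Gip had 690.5, 158.5 and 251.1 in replacement arrays and 1631, 928 and 1003 in control arrays (-2.06, SE 0.586, limma adjusted p = 0.109). Sst (somatostatin) had a difference of -1.41 (SE 0.431, adjusted p = 0.130) and Nts one of -0.99 (SE 0.387, adjusted p = 0.219). The summed intensity of these 9 products was 2015 to 3852 in replacement arrays and 4755 to 4812 in control arrays, without overlap. It differed between the groups in the same direction as Dll1. The separation rested on Gip, since without Gip replacement 1 would lie above control 1. Chgb (0.09) and Tac1 (0.20) had differences above 0. Whether the lower sum has a part in the Dll1 values was not tested. Of 8 goblet products the median was -0.15 and the sums overlapped, at 11380 to 21500 in replacement arrays and 13950 to 18880 in control arrays. The goblet products with the smallest p were Agr2 (0.54, SE 0.309, adjusted p = 0.404), which folds mucins, and Ccl9 (0.48, SE 0.354, adjusted p = 0.527). Among 5 Paneth products, with a median of -0.53, the protease Mmp7 had a difference of 1.30 (SE 0.363, adjusted p = 0.104) and the phospholipase Pla2g2a -1.36 (SE 0.386, adjusted p = 0.109). Their sums overlapped, at 2673 to 4234 in replacement arrays and 2795 to 6863 in control arrays, the highest value being control 1. Of the 4 measured tuft cell markers none had an unadjusted p under 0.05. On the absorptive side, the peptidase Anpep had -1.16 (SE 0.313, adjusted p = 0.0948) and lactase (Lct) -0.87 (SE 0.324, adjusted p = 0.200), with a median of -0.12 over 9 genes.

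Notch genes are also active in vessels, muscle and immune cells, so markers of those cells were read beside them. Of the 12 vessel markers, which belong to cells that express Dll4, Notch1 and Notch4, 8 were measured and Tie1 and Vwf were under the floor on all arrays. Their summed intensity was 262 to 369 in replacement arrays and 209 to 538 in control arrays, highest in control 1. Of the tested members, control 1 also had the highest control values of Dll1, Lfng, Atoh1 and every Dll4 and Jag1 probe set. The same held for Notch1 1418634_at and Notch2 1455556_at. It had the lowest control values of Hes1, of both Nrarp probe sets and of Jag2 1426430_at. Smooth muscle and pericyte markers summed to 185 to 306 in replacement arrays and 207 to 562 in control arrays, again highest in control 1, and Cnn1 was under the floor throughout. Leukocyte markers summed to 251 to 347 in replacement arrays and 405 to 470 in control arrays, and these sums would overlap without Lcp1. Cd3e and Cd3g were under the floor on all arrays. Neuron and glia markers summed to 194 to 267 in replacement arrays and 290 to 344 in control arrays, and these sums would overlap without S100b. In these lists 1 gene passed, the glial S100b, which fell in replacement (-1.65, SE 0.323, limma adjusted p = 0.0373), and among the epithelial markers the keratin Krt19 rose (1.27, SE 0.231, adjusted p = 0.0305). Both calls were lost without control 1 (S100b -1.41 and Krt19 1.27) or the other control replicate (-1.90 and 1.26), which leaves 1 control replicate. They were lost without replacement 2 (-1.79, adjusted p = 0.122, and 1.35, adjusted p = 0.105), where 105 of 26664 probe sets passed. Without replacement 3 (-1.77, adjusted p = 0.136, and 1.25, adjusted p = 0.138) they were lost too, and 44 passed. They were also lost with no filter (S100b adjusted p = 0.270, Krt19 adjusted p = 0.103), where 94 of 45101 probe sets passed. The same held with a floor of 4 (adjusted p = 0.0651 and 0.0542) and within either sex. That of Krt19 was lost with sex as a covariate (adjusted p = 0.0530). Dll1 had a difference of -0.79 and Jag1 1434070_at of 1.21 when control 1 was left out, and of -1.09 and 0.82 when the other control replicate was. The part of these cells in the member values was not tested.

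Dll1 and Jag1 had the same sign within each sex, as fully separate groups must give, so this adds nothing to the separation. For Dll1 the log2 difference was -1.09 within females (2 replacement arrays and 1 control array) and -0.78 within males (1 replacement array and 1 averaged control replicate). For Jag1 1434070_at it was 0.88 within females and 1.09 within males, and for Hes1 0.77 and 0.12. A test of the difference between the sexes found no kept probe set with an adjusted p under 0.05 in limma, and 1 member, Notch2 1455556_at, with an unadjusted p under 0.05 (3195 of 26664 kept probe sets had one). Only replacement 2 and replacement 3 share both group and sex, so the residual spread in that test came from these arrays alone. That none passed therefore says little. Male replacement is 1 array only, so sex and that array cannot be told apart.

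**Figure D4:**
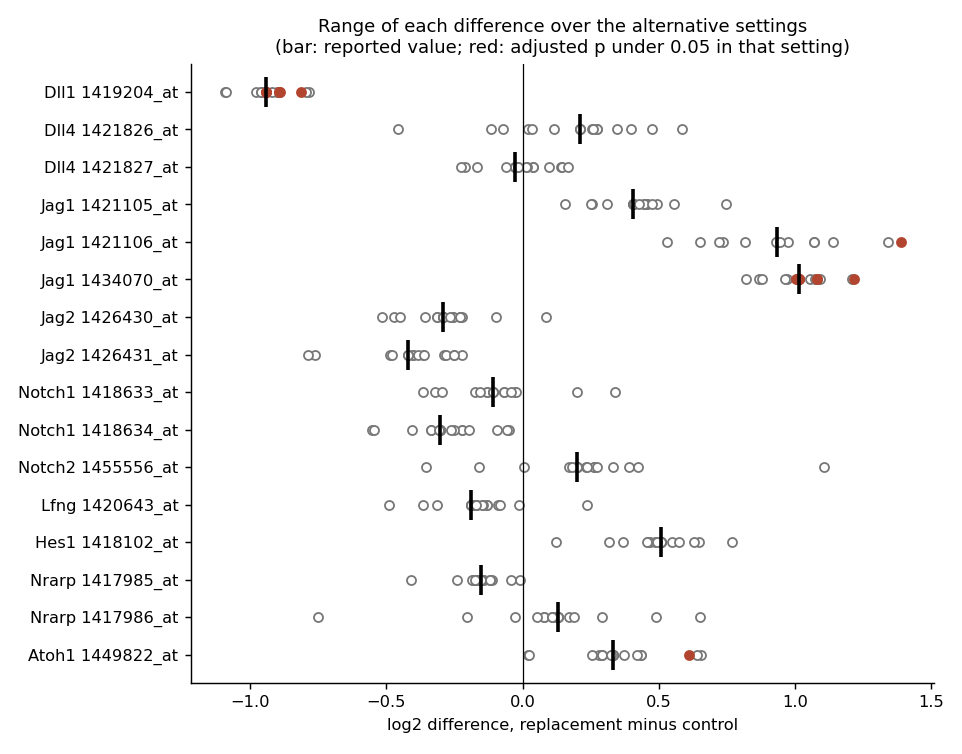
Log2 difference, replacement minus control, of each member probe set under each alternative setting (points) and as reported (black bar); red points had an adjusted p under 0.05 in that setting. Dll1 stays between -1.09 and -0.78 and Jag1 1434070_at between 0.82 and 1.22, while Notch2 1455556_at runs from -0.35 to 1.11.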

How the data were processed

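Mouse intestinal epithelium was profiled on 6 Affymetrix arrays, 3 N-cadherin replacement and 3 control, grouped by their titles. The deposited table gives 45101 probe sets as linear intensities, scaled on every array to a mean of 100 once the lowest and highest 2% are left out, as the values show. The submitters' processing notes name GCRMA and limma without their roles, so how these values were summarised is unknown here. Probe sets with at least 3 of 6 arrays at 16 or more were kept, values under 16 were set to 16, and log2 was taken. Names came from the platform annotation, which pairs 34945 probe sets with 1 gene, 34741 of them matched to GRCm38.p6 by Entrez identifier.

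Control 2 and control 3 were averaged, since their SD (0.115) lay within the range of hybridization controls over array pairs (0.0812 to 0.134), though above that of the pair itself (0.0824). The fit was limma 3.58.1 in R 4.3.3 (lmFit, eBayes), 1 row per probe set, with Benjamini-Hochberg adjustment over all kept probe sets and a threshold of 0.05. A gene in a list is counted by its kept probe set with the highest mean. Its steps were tested on simulated data. The members and lists were chosen with earlier results of these data known. All member probe sets are named, and in the other lists each gene that passed and otherwise up to 3 with the smallest p. The enteroendocrine products above 0, Chgb and Tac1, are named besides. Same-numbered samples deviated together with r of 0.21, 0.08 and 0.14, and other replacement and control samples with r of -0.20 to 0.12. The numbers were not taken to pair the samples. The check cannot decide this, because control 2 and control 3 are too alike to be told apart by it. Alternatives were other replicates, rows, filters, floors, scalings, weights and options, a replicate block, sex as a covariate, values within sexes, and each replicate left out. Figures used matplotlib 3.10.9.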

Additional observations from a re-analysis of the deposited data

Results flagged for a closer look

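In 4 member probe sets every female array moved one way and every male array the other, relative to the controls of that sex. For Notch2 1455556_at the replacement minus control difference within females less that within males was -1.46 on the log2 scale (limma unadjusted p = 0.0251, adjusted p = 0.407), for Nrarp 1417986_at it was 1.40 (adjusted p = 0.487), for Lfng 1420643_at -0.73 (adjusted p = 0.448) and for Jag2 1426430_at -0.54 (adjusted p = 0.603). None passed the test of that difference, whose residual spread came from replacement 2 and replacement 3 alone. Such opposite moves were seen in 25.0% of the 16 members, beside 26.2% of all 26664 kept probe sets, and the male replacement value is replacement 1 alone.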

How the results depend on the processing

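Over 19 alternative settings, 9 of the 16 member probe sets kept their sign in every setting they entered, among them Dll1, all of Jag1, Hes1 and Atoh1. For Dll1, Jag1 and Hes1, with fully separate groups, leaving out a replicate or splitting by sex could not turn the sign. No member passed in the reported fit. With 1 probe set per gene 2 members passed (Dll1 and Jag1), as they did with all 6 arrays (2), with the replicate block over all 6 arrays (2), with a filter at 64 (2) and with trend and robust options (2). With array weights 4 passed (Dll1, 2 of Jag1 and Atoh1), in a fit that gave the near-identical control 2 and control 3 the highest weights, with log2(intensity + 16) 1 (Dll1) and with quantile normalization 1 (Jag1). In each fit that left out a replicate the count of members was 0. Over all probe sets 1076 passed, against 3014 with all 6 arrays, 3107 with the replicate block, 94 with no filter, 1804 with a filter at 64, 661 with a floor of 4, 6844 with array weights, 0 within females and 0 within males, and 0 to 1392 when a replicate was left out. Of the other Notch pathway genes 1 passed, against 3 with 1 probe set per gene, 4 with all 6 arrays, 4 with the replicate block, 10 with array weights, 3 with a filter at 64, 0 with no filter, 0 within females and 0 within males, and 0 to 1 when a replicate was left out. Of the lineage genes 0 passed, against 6, 5, 7, 14 and 5 in the first 5 of these settings, 2 with trend and robust options, 1 with log2(intensity + 16), and 0 to 4 when a replicate was left out. Signs turned in 20 of 290 values, none of them past the threshold. Dll4 1421826_at turned to -0.12 with log2(intensity + 16), -0.46 with a floor of 4 and -0.072 within females. Dll4 1421827_at turned to 0.037 with all 6 arrays and with the replicate block, 0.016 with quantile normalization, 0.011 with median scaling and 0.14 with array weights, and to 0.14 within males, and ran from -0.23 to 0.17 when a replicate was left out. Within males Jag2 1426430_at was 0.087, Notch1 1418633_at 0.34, Lfng 0.24 and Nrarp 1417986_at -0.75. When a replicate was left out, Notch1 1418633_at ran from -0.36 to 0.20, Nrarp 1417986_at from -0.20 to 0.49 and Notch2 1455556_at from -0.16 to 0.42. Notch2 1455556_at was -0.35 within females. The cause was not tested. Within males the median of all probe sets shifted by 0.105 and without control 1 by 0.103. The check made cannot decide whether the numbers of the samples pair them. The block cannot decide it either, since each block holds 1 replacement and 1 control array. The differences are then the same with and without it. Where a control replicate was left out, the lone one is assumed to vary like the others. Probe sets near the floor, Dll4 and the dimmer ones of Jag1, Jag2 and Notch1 among them, can show only part of a difference.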

Other observations

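Y-linked transcripts in males and Xist in females were lower in the replacement arrays than in the control arrays of the same sex. Eif2s3y, on the Y chromosome, had an intensity of 114 in replacement 1 and of 410 and 418 in control 2 and control 3, and Xist (1427262_at) had 184 and 164 in replacement 2 and replacement 3 and 516 in control 1.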
